A study of Mus musculus with 6 samples.

Results

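The glutathione, thioredoxin and NRF2 genes are the enzymes and regulators by which cells remove peroxides, repair oxidised thiols and conjugate reactive compounds to glutathione. They were taken as the rows of the deposited count table whose gene symbol is on a list of 48 names, and all 48 were found among 46983 genes. RNA was measured in mouse leukemia cells of 2 genotypes, with 3 untreated libraries from C57BL/6J Alox5-/- cells and 3 untreated libraries from C57BL/6J WT cells. Cells of both groups carried MLL-AF9, a fusion oncogene of acute myeloid leukemia delivered by a retrovirus into sorted bone marrow cells that lacked lineage markers and carried Sca-1 and c-Kit. Per the labels, transduced cells were transplanted into irradiated C57BL/6J primary recipients, and samples were later sorted into a lysis reagent. Alox5 encodes 5-lipoxygenase, which starts leukotriene synthesis. The labels give each genotype a single line name and call the libraries biological replicates without naming animals, so the p-values cover the spread among these libraries alone, which may be technical.

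Glutathione is a small thiol made in a first, rate-limiting step by the glutamate-cysteine ligase (Gclc with its modifier Gclm) and a second by glutathione synthetase (Gss). Glutathione reductase (Gsr) and thioredoxin reductases keep the glutathione and thioredoxin pools reduced at the cost of NADPH, and both pools feed peroxidases. NRF2, the product of Nfe2l2, is held at low levels by KEAP1 and, once released, pairs with small MAF proteins at antioxidant response elements (AREs), where BACH1 can compete with it. In the leukotriene field these enzymes matter because 5-lipoxygenase needs lipid hydroperoxides for activity, which glutathione peroxidases remove.

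The ARE core, TGACNNNGC or its reverse complement GCNNNGTCA, was looked for in RefSeq promoter windows (GRCm38.p6, from 250 bases before to 50 after each start), because several members are textbook NRF2 targets and their levels differed in both directions. Windows were held for 42 of the 48 genes. A match lay in 10 of 57 windows of these genes (17.5%), against 12.4% of all 32851 windows. The matches of called genes that lie before the start site and outside annotated exons are shown 5′ to 3′ on the strand of the gene, with the match in capitals.
Nfe2l2, higher in Alox5-/-, chr2:75704870-75704913, minus strand: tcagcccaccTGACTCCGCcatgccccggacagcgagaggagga
Gstm5, higher in Alox5-/-, chr3:107895787-107895820, plus strand: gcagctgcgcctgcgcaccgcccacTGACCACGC
Prdx1, lower in Alox5-/-, chr4:116685441-116685499, plus strand: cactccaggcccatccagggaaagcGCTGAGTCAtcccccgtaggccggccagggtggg
Txnrd1, lower in Alox5-/-, chr10:82859089-82859147, plus strand: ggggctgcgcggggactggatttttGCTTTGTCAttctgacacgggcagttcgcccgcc
Sod1, lower in Alox5-/-, chr16:90220681-90220739, plus strand: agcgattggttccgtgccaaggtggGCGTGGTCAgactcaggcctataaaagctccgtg
Of the 10 genes with a match 3 were higher, 4 were lower and 3 (Gclm, Mafk and Mafg) were not called. Among the 45 listed genes that were tested, 42.2% were higher and 31.1% lower. Over all 13705 tested genes, these shares were 26.8% and 27.0%. A match is a description of letters, and its absence from a window says nothing about distant sites.

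Gene counts were 28985597 to 30677796 in the Alox5-/- libraries and 30239105 to 38695948 in the WT libraries. Alox5 stood at 62.1 to 65.6 CPM in Alox5-/- cells and 102 to 106 CPM in WT cells, so its transcript was lower but present, and the labels do not give the altered part of the gene. CPM are counts divided by the scaled size of each library. The Sca-1 gene Ly6a, which marks the cells sorted before transduction, was at 0.581 to 0.866 CPM in Alox5-/- cells and 0.875 to 1.21 CPM in WT cells, while Kit was at 134 to 139 CPM in Alox5-/- cells and 156 to 162 CPM in WT cells. The 9 erythroid markers summed to at most 0.786 CPM in Alox5-/- cells and 0.865 CPM in WT cells, and 8 macrophage markers to at most 1.28 and 1.27 CPM in Alox5-/- cells and WT libraries. The 7 lymphoid markers summed to at most 0.239 CPM in Alox5-/- cells and 0.314 CPM in WT cells, with Cd3e and Ncr1 at 0. Stromal and endothelial markers summed to 0.738 to 0.923 CPM in Alox5-/- cells and 0.404 to 0.707 CPM in WT cells, and their part in the results was not tested. Of 10 leukemia and progenitor markers 3 were called higher in Alox5-/- (Cd34, Hoxa9 and Ptprc, with log2 fold changes of 0.36, 0.33 and 0.09). Another 5 were called lower (Kit, Hoxa10, Cebpa, Mpo and Itgam, with -0.23, -0.33, -0.13, -1.59 and -0.21), and Meis1 and Ly6a were not called. Thus 8 of these 10 were called, where 53.8% of all tested genes were called. The 10 markers had a median total count of 27845, against 5312 for all tested genes. The part of this depth in their calls was not tested. Mpo, the myeloperoxidase of granulocyte precursors, was 59.1 to 74.2 CPM in Alox5-/- cells and 183 to 210 CPM in WT cells, and the part of these markers in the results was not tested. Fewer cells of a type and less RNA per cell cannot be told apart in these bulk samples. Xist, the RNA of the inactive X chromosome, was 167 to 196 CPM in Alox5-/- cells and 1683 to 1911 CPM in WT cells, so a difference in the sex of the source cells and the genotype cannot be told apart in any result below. Alox5-/- replicate 2 stood farther from its group than the other libraries (chi-square per degree of freedom 8.53 and 9.65 against its 2 partners, and 2.11 between those).

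Of the 48 genes, 45 passed the expression filter. By edgeR's quasi-likelihood test with Benjamini-Hochberg adjustment over all tested genes and a threshold of 0.05, 19 of them were higher in Alox5-/- cells, 14 were lower and 12 were not called. The called share was 73.3%, against 53.8% of all 13705 tested genes, of which 26.8% were higher and 27.0% lower. The list was chosen with earlier results of these data known, so these shares describe it and are no test of it. The median total count over the 6 libraries was 11155 for these 45 genes and 5312 for all tested genes, and the part of this greater depth in the called share was not tested. Most differences were small: the median log2 fold change was 0.02 and the median absolute log2 fold change 0.23, against 0.00 and 0.19 over all tested genes. Called differences of at least 1.5-fold were found in 7 of the 45 genes (15.6%), against 11.5% of all tested genes. With Nfe2l1, 8 genes were called and at least 1.4-fold different, 7 of them higher and 1 lower, against 9.62% of all tested genes higher and 4.98% lower by the same rule. Alox5-/- and WT libraries were fully apart for 36 of the 45, against 60.0% of all tested genes.

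The untested genes were Gpx7 and Gpx8, peroxidases of the endoplasmic reticulum with no count in any library, and Bach2, a repressor related to BACH1. Bach2 had 2, 2 and 2 counts in Alox5-/- and 1, 0 and 0 in WT. A count of 0 allows up to 3 counts per library, or 0.0786 to 0.103 CPM, for counting error only.

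**Figure D1:**
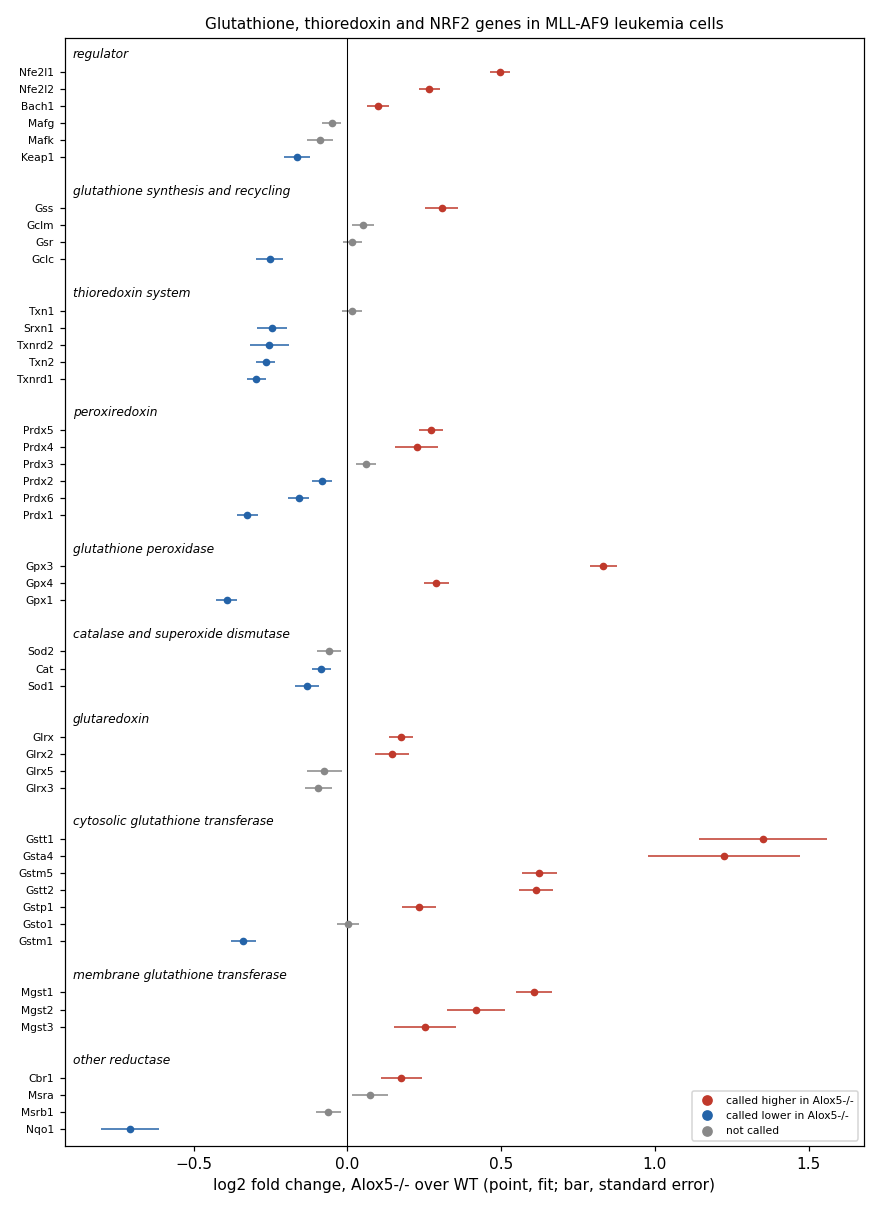
Log2 fold change of Alox5-/- over WT for the 45 tested genes, grouped by role, as fitted value with standard error over 3 libraries a group. Red points are higher, blue points lower and grey points not called (edgeR, adjusted p threshold 0.05). Membrane transferases lie to the right of 0, and 4 of 5 thioredoxin system genes to the left. Over all tested genes, 26.8% were called higher and 27.0% lower.

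The regulators moved in different directions. Nfe2l1, which encodes the related factor NRF1 that drives proteasome genes, had 531, 557 and 542 CPM in Alox5-/- cells and 399, 376 and 381 CPM in WT cells. Every Alox5-/- library lay above every WT library, and the log2 fold change of 0.50 (SE 0.03; by edgeR, adjusted p = 1.10e-08), or 1.41-fold, was the only one of at least 1.4-fold among the 6 tested regulators. Nfe2l1 lies at 96817414 to 96829968 on the minus strand of chromosome 11 (mm10).

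Nfe2l2, at 75675513 to 75704641 on chromosome 2, had 96.2, 97.0 and 99.6 CPM in Alox5-/- cells and 81.4, 82.8 and 79.4 CPM in WT cells. The groups did not overlap, with a log2 fold change of 0.27 (SE 0.03; by edgeR, adjusted p = 1.25e-05). Keap1, the adaptor that sends NRF2 for degradation, had 78.9, 84.1 and 78.8 CPM in Alox5-/- cells and 92.2, 84.6 and 93.8 CPM in WT cells. Alox5-/- replicate 2 and WT replicate 2 lay close together, and the log2 fold change was -0.16 (SE 0.04; by edgeR, adjusted p = 0.00521). An opposite-strand transcript, Gm16754, covers 10.9% of its exonic bases, and the strand setting of the counts is not given.

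Bach1 had 77.8, 79.5 and 80.3 CPM in Alox5-/- cells and 72.1, 75.9 and 73.6 CPM in WT cells, a log2 fold change of 0.10 (SE 0.04; by edgeR, adjusted p = 0.0291). This call was lost with DESeq2 (adjusted p = 0.0599) and when Alox5-/- replicate 3 (0.0972), WT replicate 1 (0.125) or WT replicate 3 (0.0752) was left out. The small MAF partners Mafg and Mafk were not called, with log2 fold changes of -0.05 and -0.09. The differences among regulators are of RNA, and NRF2 protein, which is controlled largely by degradation, was not measured.

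Of the 4 genes of glutathione synthesis and recycling 1 was higher, 1 was lower and 2 were not called. Among all tested genes, 53.8% were called. Gclc, the catalytic subunit of the rate-limiting ligase, had 54.1, 50.3 and 49.3 CPM in Alox5-/- cells and 59.4, 60.3 and 63.4 CPM in WT cells, all Alox5-/- libraries below WT. Its log2 fold change was -0.25 (SE 0.04; by edgeR, adjusted p = 0.000231). Gclm, its modifier subunit, had 70.9, 73.7 and 74.2 CPM in Alox5-/- cells and 71.5, 69.5 and 70.1 CPM in WT cells. The groups overlapped, and Gclm was not called (log2 fold change 0.05, SE 0.04; by edgeR, adjusted p = 0.253).

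Gss, the synthetase of the second step, was 24.4 ± 0.704 CPM in Alox5-/- cells and 19.7 ± 0.375 CPM in WT cells (SD, n = 3 each), a log2 fold change of 0.31 (SE 0.05; by edgeR, adjusted p = 0.000222). Opposite-strand genes cover 15.4% of its exonic bases. Gsr, which returns oxidised glutathione to its reduced form, had 539, 520 and 534 CPM in Alox5-/- cells and 514, 530 and 530 CPM in WT cells. The groups overlapped, and the log2 fold change of 0.02 (SE 0.03; by edgeR, adjusted p = 0.673) was not called.

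The thioredoxin system was lower in 4 of 5 genes, with Txn1 not called, and the median over its log2 fold changes was -0.25. Among all tested genes, 27.0% were called lower. Txnrd1, the cytosolic thioredoxin reductase and a selenoprotein, had 213, 210 and 215 CPM in Alox5-/- cells and 256, 267 and 260 CPM in WT cells. No library of the groups overlapped, and the log2 fold change was -0.30 (SE 0.03; by edgeR, adjusted p = 1.48e-06). Srxn1, the sulfiredoxin that repairs overoxidised peroxiredoxins, had 40.8, 41.8 and 40.2 CPM in Alox5-/- cells and 47.2, 52.0 and 46.5 CPM in WT cells. It too was lower in every Alox5-/- library, at a log2 fold change of -0.25 (SE 0.05; by edgeR, adjusted p = 0.000593).

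The mitochondrial thioredoxin Txn2 and its reductase Txnrd2 had log2 fold changes of -0.27 and -0.25 (by edgeR, adjusted p = 4.52e-06 and 0.00325). Txn2 was 158 ± 3.06 CPM in Alox5-/- cells and 190 ± 1.81 CPM in WT cells (SD, n = 3 each), so both mitochondrial members were lower. Cytosolic thioredoxin, Txn1, was 226 ± 5.41 CPM in Alox5-/- cells and 224 ± 4.56 CPM in WT cells (log2 fold change 0.01, SE 0.03; by edgeR, adjusted p = 0.737).

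Peroxiredoxins, which reduce hydrogen peroxide with electrons mostly from thioredoxin, were divided. Prdx1, an abundant cytosolic form at 116685544 to 116700822 on chromosome 4, had 151, 145 and 152 CPM in Alox5-/- cells and 182, 193 and 187 CPM in WT cells. The groups were well apart, with a log2 fold change of -0.32 (SE 0.03; by edgeR, adjusted p = 1.65e-06). Prdx6, which uses glutathione, was also lower (log2 fold change -0.16, SE 0.03; by edgeR, adjusted p = 0.00103).

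Prdx2, the third lower member, had a log2 fold change of -0.08 (by edgeR, adjusted p = 0.0459), and this call was lost under 11 of 14 alternatives, with adjusted p up to 0.188. Opposite-strand genes cover 11.5% of the exonic bases of Prdx2. Prdx5, found in mitochondria and peroxisomes, and Prdx4, of the secretory pathway, were higher, with log2 fold changes of 0.27 and 0.22 (by edgeR, adjusted p = 4.03e-05 and 0.0139). Prdx5 shares 19.1% of its exonic bases with Trmt112 on the opposite strand. The Prdx4 call was lost without Alox5-/- replicate 2 (0.0637) or WT replicate 1 (0.0565), and this gene lies on chromosome X. The mitochondrial Prdx3 was not called (log2 fold change 0.06; by edgeR, adjusted p = 0.135) and passed the threshold with upper-quartile scaling (0.0349).

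The 3 tested glutathione peroxidases were all called, in opposite directions, where 53.8% of all tested genes were called. Gpx3, the secreted plasma form, at 54902453 to 54910377 on chromosome 11, had 56.4, 55.8 and 53.9 CPM in Alox5-/- cells and 31.8, 31.4 and 30.3 CPM in WT cells. The lowest Alox5-/- library was well above the highest WT library, a 1.78-fold difference with a log2 fold change of 0.83 (SE 0.04; by edgeR, adjusted p = 9.27e-10). Its absolute log2 fold change exceeded that of 93.4% of all tested genes.

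Gpx1, the main cytosolic form, at 108338903 to 108340343 on chromosome 9, had 638, 679 and 625 CPM in Alox5-/- cells and 850, 837 and 862 CPM in WT cells. All Alox5-/- libraries were lower, and the log2 fold change was -0.39 (SE 0.03; by edgeR, adjusted p = 2.08e-07). Gpx4, which reduces lipid hydroperoxides within membranes and protects from ferroptosis, had 51.9, 50.9 and 51.2 CPM in Alox5-/- cells and 43.4, 41.3 and 41.5 CPM in WT cells. It was higher in every Alox5-/- library (log2 fold change 0.29, SE 0.04; by edgeR, adjusted p = 3.10e-05). The pseudogene Gpx4-ps2 holds 34.7% of the 50-base words of Gpx4 transcripts, so its value is uncertain.

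Catalase and the superoxide dismutases differed little. Cat had 152, 147 and 148 CPM in Alox5-/- cells and 158, 157 and 160 CPM in WT cells, a log2 fold change of -0.09 (SE 0.03; by edgeR, adjusted p = 0.0329). The groups did not overlap, but the call was lost under 9 of 14 alternatives, with adjusted p up to 0.148. Sod1, the cytosolic copper-zinc enzyme, was lower by the test (log2 fold change -0.13; by edgeR, adjusted p = 0.0103), a call lost without Alox5-/- replicate 1 (0.0719). The mitochondrial Sod2 was not called (log2 fold change -0.06, by edgeR, adjusted p = 0.207). Other genes hold 21.0% of the 50-base words of Sod2 transcripts, so its count is uncertain.

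Glutaredoxins, which reduce disulfides with glutathione, included 2 called genes of 4, both higher, where 53.8% of all tested genes were called. Glrx, the cytosolic form, was 63.1 ± 1.46 CPM in Alox5-/- cells and 55.9 ± 1.58 CPM in WT cells (SD, n = 3 each; log2 fold change 0.18, SE 0.04; by edgeR, adjusted p = 0.0015). Glrx2, a mitochondrial form, had a log2 fold change of 0.15 (by edgeR, adjusted p = 0.0376), and its call was lost under 5 of 14 alternatives (adjusted p up to 0.130). Leaving out Alox5-/- replicate 2, WT replicate 2 or WT replicate 3 ended it. Glrx3 and Glrx5, both tied to iron-sulfur cluster handling, were not called (log2 fold changes -0.09 and -0.08), although Glrx5 passed the threshold without Alox5-/- replicate 2 (0.0477). Other genes hold 15.1% of the 50-base words of Glrx3 transcripts, chiefly Gm12669, so its count is uncertain.

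**Figure D2:**
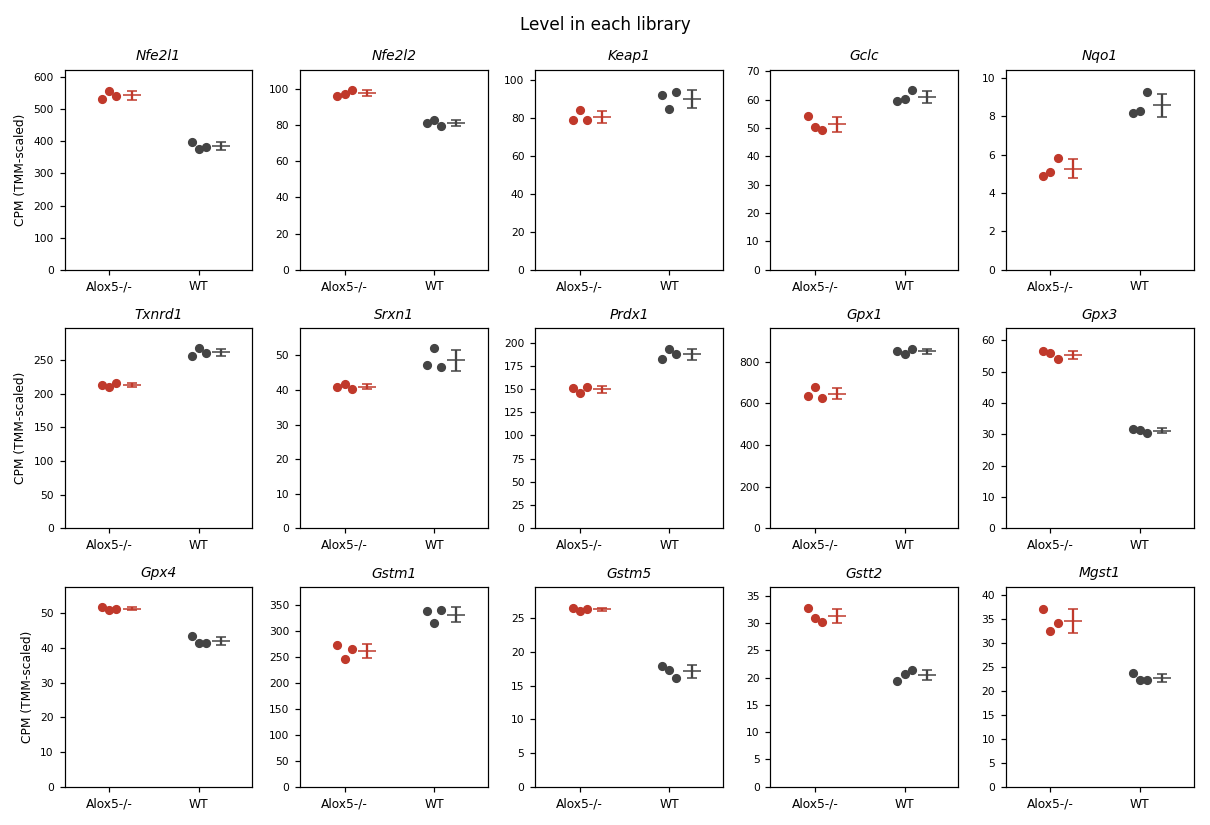
CPM in each library for 15 genes, 3 Alox5-/- libraries in red and 3 WT libraries in dark grey, with mean and SD beside the points and every axis starting at 0. The points of the groups are apart in each panel, narrowly for Keap1 (84.1 CPM in the highest Alox5-/- library and 84.6 CPM in the lowest WT library). Only genes without overlap are shown, so this separation follows from their choice. Groups of Gclm and Gsr, which are not shown, overlapped. Of all tested genes 60.0% had groups that did not overlap.

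The glutathione transferases, which couple glutathione to electrophiles, held 5 of the 7 members that were called and differed at least 1.5-fold. Such differences were found in 57.1% of the 7 cytosolic and 33.3% of the 3 membrane transferases. The share was 15.6% of the 45 tested members and 11.5% of all tested genes. Gstt1 and Gsta4, which are among the 5, rest on 195 and 133 counts in the 6 libraries. Among 7 cytosolic transferases 5 were higher (71.4%, against 26.8% of all tested genes), Gstm1 was lower and Gsto1 was not called. Gstm5, of the mu class, at 107895821 to 107898686 on chromosome 3, had 26.4, 26.1 and 26.3 CPM in Alox5-/- cells and 17.9, 17.3 and 16.1 CPM in WT cells. The groups were far apart, with a log2 fold change of 0.62 (SE 0.06; by edgeR, adjusted p = 3.81e-07). An opposite-strand gene, 4933431E20Rik, covers 13.9% of its exonic bases.

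Gstm1, in the same gene cluster at 108012255 to 108017973, went the other way, with 273, 247 and 266 CPM in Alox5-/- cells and 338, 315 and 341 CPM in WT cells. Every Alox5-/- library was lower, and the log2 fold change was -0.34 (SE 0.04; by edgeR, adjusted p = 6.02e-06). Other genes hold 18.9% of the 50-base words of Gstm1 transcripts, chiefly the pseudogene Gstm2-ps1, so its count is uncertain. Further mu class genes of the cluster, Gstm2, Gstm4 and Gstm7, were higher, with log2 fold changes of 0.49, 0.33 and 0.72. Of these Gstm7 had 4.88, 4.68 and 5.21 CPM in Alox5-/- cells and 2.75, 3.13 and 3.07 CPM in WT cells (by edgeR, adjusted p = 5.10e-05). Shared words were looked for in the 48 listed genes alone, so Gstm2, Gstm4 and Gstm7 were not checked for copies.

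Gstt2, a theta class enzyme at 75831114 to 75837424 on chromosome 10, had 32.6, 31.0 and 30.2 CPM in Alox5-/- cells and 19.4, 20.6 and 21.3 CPM in WT cells. All Alox5-/- libraries were higher, with a log2 fold change of 0.61 (SE 0.06; by edgeR, adjusted p = 3.33e-07). Gstt1, in the same gene cluster at 75783813 to 75798584, had 1.51, 1.71 and 1.35 CPM in Alox5-/- cells and 0.636, 0.505 and 0.629 CPM in WT cells. It was low but apart between groups, a 2.55-fold difference (log2 fold change 1.35, SE 0.21; by edgeR, adjusted p = 6.24e-05). Gstt3, the next gene of this cluster, was higher as well, by a log2 fold change of 0.33 (by edgeR, adjusted p = 0.000455).

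Gsta4, an alpha class enzyme that handles the lipid peroxidation product hydroxynonenal, had 0.834, 1.16 and 1.04 CPM in Alox5-/- cells and 0.402, 0.471 and 0.419 CPM in WT cells. The groups did not overlap (log2 fold change 1.23, SE 0.25; by edgeR, adjusted p = 0.000658), on 133 counts in all 6 libraries. Gstt1 and Gsta4 were not kept by a filter of at least 1 CPM in every library. Gstp1, of the pi class, was 28.8 ± 1.6 CPM in Alox5-/- cells and 24.5 ± 0.65 CPM in WT cells (SD, n = 3 each; log2 fold change 0.23; by edgeR, adjusted p = 0.00231). The near-identical Gstp2 holds 33.7% of its 50-base words and had no count, so reads of either gene may have gone uncounted. Gsto1, of the omega class, was 93.6 ± 0.552 CPM in Alox5-/- cells and 93.4 ± 2.71 CPM in WT cells (log2 fold change 0.00, SE 0.03; by edgeR, adjusted p = 0.970).

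The 3 microsomal transferases, membrane proteins of the family that also holds the 5-lipoxygenase activating protein, were all higher. Of all tested genes 26.8% were called higher. Mgst1, at 138140316 to 138156755 on chromosome 6, had 37.2, 32.5 and 34.1 CPM in Alox5-/- cells and 23.7, 22.3 and 22.3 CPM in WT cells. No library overlapped between groups, and the log2 fold change was 0.61 (SE 0.06; by edgeR, adjusted p = 6.31e-07). Mgst2, which can also form leukotriene C4, was 11.2 ± 0.837 CPM in Alox5-/- cells and 8.39 ± 1.12 CPM in WT cells (SD, n = 3 each; log2 fold change 0.42, SE 0.09; by edgeR, adjusted p = 0.00158). Mgst3 had a log2 fold change of 0.25 (SE 0.10; by edgeR, adjusted p = 0.0441), and its call was lost under 9 of 14 alternatives, with adjusted p up to 0.167. Ltc4s, the dedicated leukotriene C4 synthase of this family, had 21 counts in the 6 libraries and was not tested.

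Nqo1, the quinone reductase used widely as a readout of NRF2 activity, had the largest fall among the 45 genes. It had 4.88, 5.09 and 5.82 CPM in Alox5-/- cells and 8.17, 8.25 and 9.25 CPM in WT cells. Every Alox5-/- library was below every WT library, a 1.63-fold difference (log2 fold change -0.71, SE 0.09; by edgeR, adjusted p = 1.65e-05). Its position is 107388225 to 107403206 on chromosome 8. Cbr1, a carbonyl reductase that also acts on prostaglandins, had a log2 fold change of 0.18 (SE 0.07; by edgeR, adjusted p = 0.0405). The call was lost with DESeq2 (0.0862) and when Alox5-/- replicate 3 (0.131), WT replicate 1 (0.057) or WT replicate 2 (0.147) was left out. The methionine sulfoxide reductases Msra and Msrb1 were not called (log2 fold changes 0.07 and -0.06).

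Per length, the genes spanned a wide range, given here as RPKM, the CPM per kilobase of annotated exon. Gpx1 was highest in both groups, at 449 ± 19.4 RPKM in Alox5-/- and 590 ± 8.59 RPKM in WT (SD, n = 3 each). In WT it was followed by Gstm1 (225 RPKM), Txn1 (213 RPKM) and Gsr (191 RPKM). In Alox5-/- the order after Gpx1 was Txn1 (215 RPKM), Gsr (193 RPKM) and Gstm1 (178 RPKM). Gpx3 stood in place 16 of the 48 in Alox5-/- and place 22 in WT, and Nqo1 in place 42 in Alox5-/- and place 36 in WT. The genes with the greatest folds, Gstt1 and Gsta4, were the lowest of those tested, at 0.995 and 0.800 RPKM in Alox5-/- and 0.386 and 0.340 RPKM in WT.

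**Figure D3:**
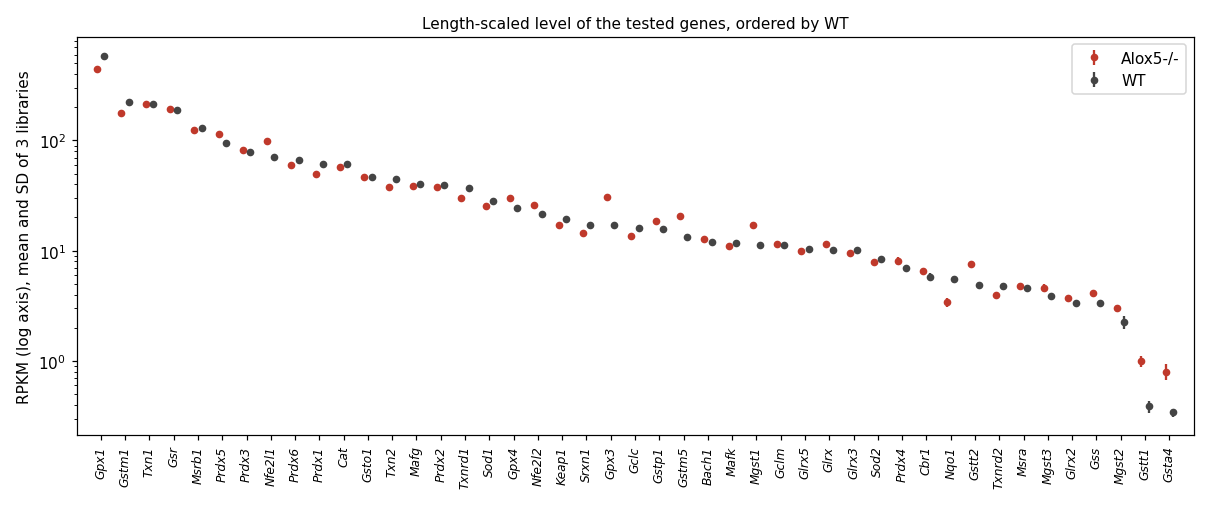
RPKM on a log axis for the 45 tested genes, ordered from highest to lowest in WT, with Alox5-/- in red and WT in dark grey, as mean and SD of 3 libraries. Gpx1 is highest in both groups, and the groups stand farthest apart for the low genes Gstt1 and Gsta4.

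The other genes of these pathways, 95 in the table with 76 tested, numbered 34 higher and 18 lower (68.4% called, against 53.8% of all tested genes). Their median total count was 11043, against 5312 for all tested genes, and the part of this depth in the called share was not tested. The lists of these genes were also chosen with earlier results of these data known, so shares of a list are no test of it. Among 14 tested genes of cystine supply and glutathione turnover 7 were higher and 3 lower (71.4% called, against 53.8% of all tested genes). Cth, which releases cysteine from cystathionine, had 128, 138 and 137 CPM in Alox5-/- cells and 63.3, 62.6 and 55.9 CPM in WT cells. Slc1a4, a neutral amino acid carrier, and Chac1, which degrades glutathione, had log2 fold changes of 1.27 and 1.24 (by edgeR, adjusted p = 4.95e-11 and 1.03e-10). The cystine carrier Slc7a11 and its partner Slc3a2 had log2 fold changes of 1.02 and 0.60, while the glutathione turnover enzymes Ggt1 and Ggct were not called (log2 fold changes 0.17 and -0.06); these were named after their values were seen. Cbs, the enzyme before Cth, is among the 3 counted as lower. It was barely detected, at 0.0642, 0.103 and 0.135 CPM in Alox5-/- cells and 0.603, 0.438 and 0.812 CPM in WT cells. Only its WT libraries were high enough to pass the expression filter, so its call is no support for a difference in the list.

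Among 20 tested further genes listed as NRF2 targets 7 were higher and 7 lower (70.0% called, against 53.8% of all tested genes). The list does not say whether NRF2 raises or lowers a gene, so these counts are no measure of NRF2 activity. Txnip, which binds and inhibits thioredoxin, had 428, 443 and 429 CPM in Alox5-/- cells and 143, 150 and 129 CPM in WT cells. These groups were far apart (log2 fold change 1.62, SE 0.05; by edgeR, adjusted p = 1.13e-12). Sqstm1, the autophagy receptor p62 that binds KEAP1, had 322, 363 and 349 CPM in Alox5-/- cells and 205, 203 and 210 CPM in WT cells. It was higher in every Alox5-/- library (log2 fold change 0.74, SE 0.04; by edgeR, adjusted p = 1.21e-09). Blvrb, biliverdin reductase B, had a log2 fold change of 0.70 (by edgeR, adjusted p = 7.36e-05).

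The following genes were named after their values were seen, and no count over NADPH enzymes was made. G6pdx, the first enzyme of the pentose phosphate pathway and X-linked, was 212 ± 10.7 CPM in Alox5-/- cells and 288 ± 6.69 CPM in WT cells (SD, n = 3 each). Pgd, Idh1, the NAD kinase Nadk and the mitochondrial transhydrogenase Nnt had log2 fold changes of -0.22, -0.34, -0.37 and -0.22 (by edgeR, adjusted p = 5.16e-05, 1.40e-06, 2.74e-07 and 0.000145). The malic enzyme Me1 was not called (log2 fold change 0.09), and the mitochondrial NAD kinase Nadk2 was higher (log2 fold change 0.26; by edgeR, adjusted p = 0.000158).

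Of 9 further tested transferases 8 were higher (88.9%, against 26.8% of all tested genes) and Ptges was not called. Their median log2 fold change was 0.40, against 0.00 over all tested genes. This list was chosen with earlier results of these data known, so its share and median are no test of it. Of 17 further thioredoxin and peroxidase genes 8 were higher and 5 lower (76.5% called, against 53.8% of all tested genes). Msrb3, a methionine sulfoxide reductase, had 2.57, 3.15 and 2.46 CPM in Alox5-/- cells and 0.737, 0.572 and 0.891 CPM in WT cells (log2 fold change 1.86, SE 0.19; by edgeR, adjusted p = 1.17e-06). Sesn2, a sestrin, had a log2 fold change of 0.60 (by edgeR, adjusted p = 4.32e-09). Among 8 NRF2 partners and degradation genes 3 were higher (Nfe2 0.18, Maff 0.25 and Btrc 0.18 as log2 fold changes) and 5 were not called. The called share of this list was 37.5%, against 53.8% of all tested genes. Of 8 genes that insert selenocysteine, the residue of GPX1, GPX3, GPX4 and the thioredoxin reductases, 1 was higher and 3 were lower, with log2 fold changes from -0.28 to 0.20. Thus 4 of these 8 were called, where 53.8% of all tested genes were called.

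**Figure D4:**
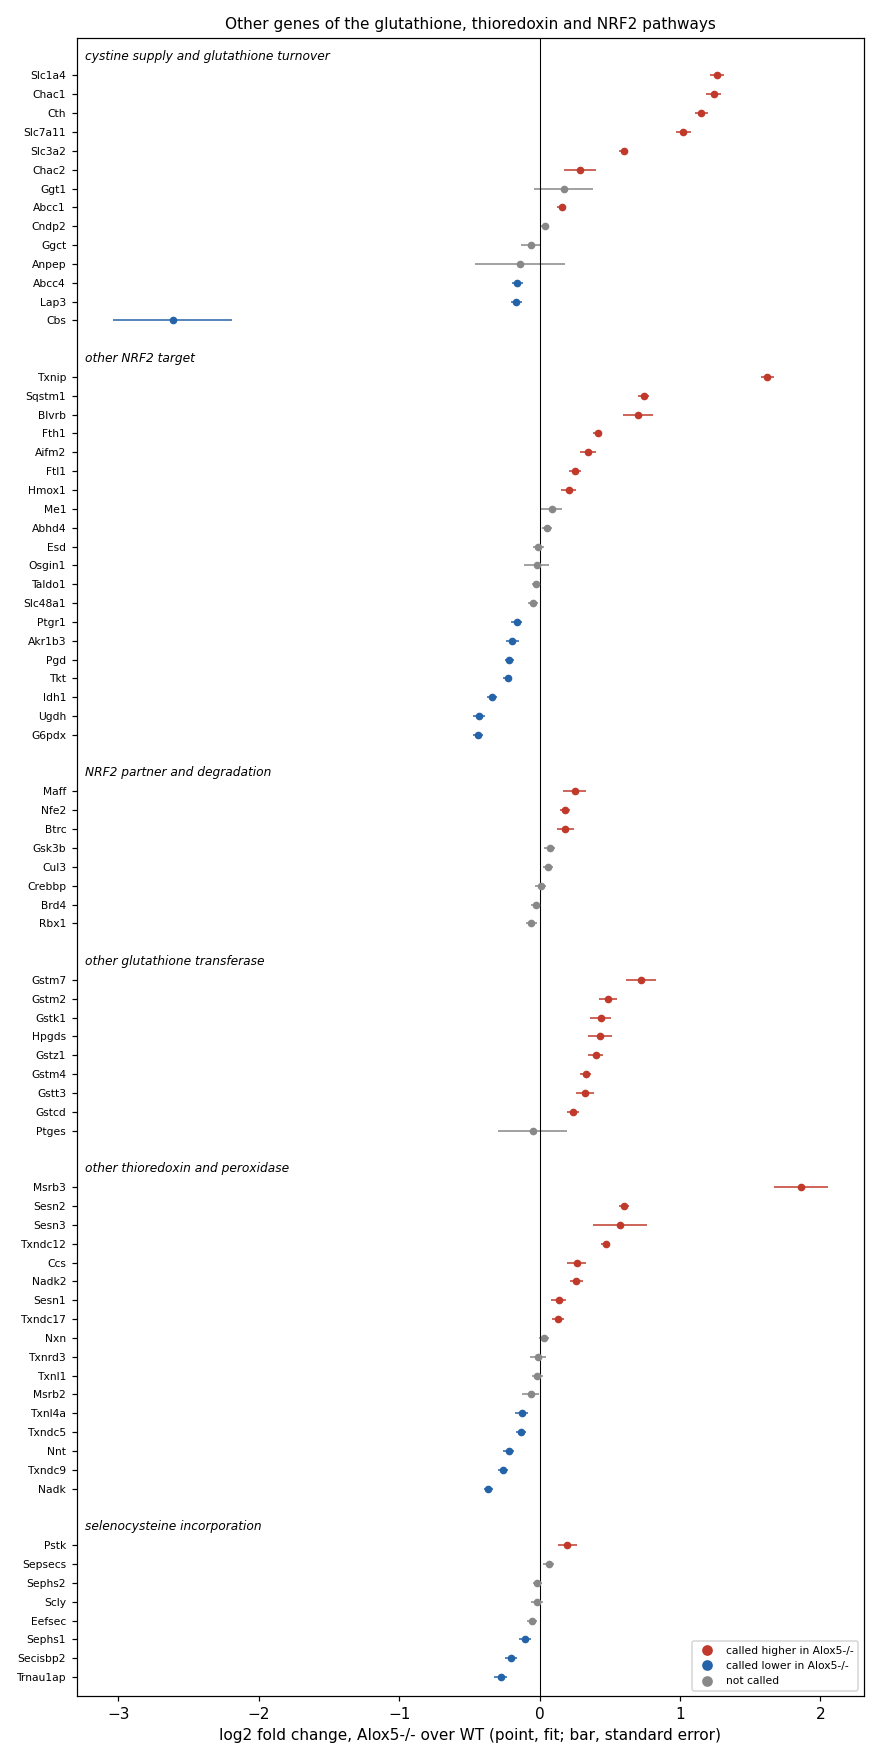
Log2 fold change of Alox5-/- over WT with standard error for the 76 tested further genes of these pathways, by role, with red higher, blue lower and grey not called. Of the 9 further glutathione transferases 8 lie to the right of 0, and Txnip and Msrb3 are farthest right in their groups. Over all tested genes, 26.8% were called higher, and the lists were chosen with earlier results of these data known.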

How the data were processed

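Poly-A RNA of sorted cells was amplified with the SMARTer kit, per the labels' protocols. The authors deposited raw read counts per gene made with HTSeq on mm10. The submitters' processing notes name these and DESeq2. Not given in the sources used here are the aligner, versions, annotation release and strand setting. Multiply aligned reads (24.4 to 24.8%) and other HTSeq summary rows were left out, leaving 60.0 to 60.9% of reads, so near-identical gene copies are undercounted.

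Counts were fitted in R 4.3.3 with edgeR 4.0.16 (TMM scaling, default expression filter, quasi-likelihood F-test, no covariate, 3 libraries against 3), after a check on simulated counts. CPM carry TMM factors. RPKM, positions and shared 50-base words used GENCODE vM21, on the same build as the counts. Alternatives were DESeq2 1.42.0, limma-voom 3.58.1, other scalings and filters, a robust fit, each library left out and a replicate block. Members and lists were chosen with earlier results of these data known. Values per library were given for called members that differed at least 1.4-fold and for 12 central genes of the pathways; Gpx1 and Gstm1 were added after their values were seen. Further pathway genes were named where called and changed at least 1.5-fold, up to 4 per list. Slc7a11, Slc3a2, Ggt1, Ggct, the NADPH enzymes, Gstm2, Gstm4, Gstt3, Ltc4s, Ptges, Nfe2, Maff, Btrc and Sephs1 were also named after their values were seen.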

Additional observations from a re-analysis of the deposited data

How the results depend on the processing

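The count of called members was 33 of 45 and stayed within 1.5 times of that under all 14 alternatives: DESeq2 called 27 and limma-voom 32, a stricter filter left 29 and no filter 30, and leaving out 1 library gave 27 to 31. At least 1.5-fold called members numbered 5 to 7. Over the tested members and alternatives, 577 values kept their direction and side of the threshold, 45 called ones lost their call (of Bach1, Cat, Cbr1, Glrx2, Mgst3, Prdx2, Prdx4 and Sod1, all with absolute log2 fold changes of at most 0.25), 3 gained one (Prdx3, Glrx5 and Mafk, the last with an adjusted p of 0.0334 without WT replicate 2) and 3 uncalled ones changed sign. The last were Gsto1 without WT replicate 1 (log2 fold change -0.0080) or WT replicate 2 (-0.014), and Txn1 without WT replicate 2 (-0.00012). With each library left out, Gsto1 ranged from -0.014 to 0.026 and Txn1 from -0.00012 to 0.041. The cause was not tested.

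Replicate numbers did not pair the libraries: same-numbered libraries had correlations of -0.02, -0.08 and 0.02 in their deviations from group means. With the replicate block 29 members were called, 17 higher and 12 lower, against 7029 of all genes. Upper-quartile scaling moved the median log2 fold change of all genes by 0.03. Depth limits Gstt1 and Gsta4, with 195 and 133 counts in all, and left Bach2, Gpx7 and Gpx8 untested.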
